A study of Mus musculus with 35 samples.

Results

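Glycolysis splits glucose into pyruvate in the cytosol, and 10 of its enzymes and regulators were followed in the mRNA of CD45+ microglia, the resident macrophages of the brain. They were the hexokinases Hk1, Hk2 and Hk3, the phosphofructokinase subunit Pfkl, the regulator Pfkfb3, and Aldoa, Gapdh, Pgk1, Pkm and Ldha. The genes were chosen by name, with earlier results of these data known. All 10 of 10 were found among the 55401 gene rows of the count table and passed the filter on low counts, which kept 17612 genes in all. The cells came from whole brains of wild-type C57BL/6 mice, without treatment, at postnatal day 6 (P6), postnatal day 15 (P15) and 8 weeks (8W), and each mouse gave 1 mRNA library. Dissociated brain cells were captured on dishes coated with an antibody against CD45, a surface protein of white blood cells that monocytes and other macrophages also carry. Values cover 34 mice, namely 4 females and 6 males at P6, 6 females and 6 males at P15, and 6 females and 6 males at 8 weeks. P6 female 6, which the study left out of its analyses, is given only where it is named. Fragments counted on genes ranged from 23316107 to 38965078 per mouse. Levels are counts per 1000000 counts of the library (CPM) with library sizes scaled by TMM, a method that sets most genes to a common level, and spreads are standard deviations (SD) between mice.

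Hexokinases phosphorylate glucose and so hold it in the cell. Hk1 and Hk2 can bind mitochondria, whereas Hk3 is known mainly from myeloid cells. Phosphofructokinase-1, of which Pfkl is the liver-type subunit, makes the committed step, and Pfkfb3 makes fructose 2,6-bisphosphate, the strongest activator of that step. Aldolase (Aldoa) cleaves the sugar, Gapdh oxidises the resulting triose phosphate, Pgk1 makes the first ATP of the payoff phase, Pkm makes the second ATP with pyruvate, and Ldha turns pyruvate into lactate while restoring NAD+. Microglia are known to raise glycolysis when activated by inflammatory stimuli, and several of these genes are known targets of the hypoxia-inducible factor HIF-1.

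The promoters of the 3 hexokinases and of Pgk1 and Ldha, the genes with the largest falls, show how differently the members are built upstream of their starts. The sequences come from RefSeq on GRCm38.p6 and are the 150 bases before an annotated start, 5′ to 3′ on the strand of the gene. Capitals mark the letters ACGTG or GCGTG on either strand, the core that HIF-1 binds. Hk1 is from chr10:62340422-62340571 on the minus strand, Hk2 from chr6:82774455-82774604 on the minus strand, Hk3 from chr13:55021386-55021535 on the minus strand, Pgk1 from chrX:106186950-106187099 on the plus strand, and Ldha from chr7:46845654-46845803 on the plus strand.
Hk1: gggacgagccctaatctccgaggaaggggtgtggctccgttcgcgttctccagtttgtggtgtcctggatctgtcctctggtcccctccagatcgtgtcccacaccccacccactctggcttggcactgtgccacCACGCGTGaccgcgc
Hk2: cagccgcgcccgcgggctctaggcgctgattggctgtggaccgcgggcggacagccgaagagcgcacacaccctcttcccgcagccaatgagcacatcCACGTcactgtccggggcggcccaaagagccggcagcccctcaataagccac
Hk3: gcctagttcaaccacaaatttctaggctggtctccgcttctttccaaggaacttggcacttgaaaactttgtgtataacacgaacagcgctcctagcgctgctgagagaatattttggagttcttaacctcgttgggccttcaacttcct
Pgk1: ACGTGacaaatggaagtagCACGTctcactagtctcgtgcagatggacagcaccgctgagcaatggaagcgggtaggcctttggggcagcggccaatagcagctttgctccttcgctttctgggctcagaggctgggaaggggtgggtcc
Ldha: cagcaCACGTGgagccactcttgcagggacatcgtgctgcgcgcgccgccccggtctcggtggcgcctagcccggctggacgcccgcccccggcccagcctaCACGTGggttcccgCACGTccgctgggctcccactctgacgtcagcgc
Within these windows the core was found 5 times in the Ldha promoter, 2 times in those of Pgk1 and Hk1, 1 time in that of Hk2 and 0 times in that of Hk3. RefSeq gives Hk1 and Ldha 2 promoters each, and the one with more cores is shown; the other held 0 cores for Hk1 and 1 for Ldha in the same window, with 51.3% and 56.7% G and C in 300 bases. CACGTG and CACGCGTG read as a core on each strand and were counted 2 times, and in these windows the motifs overlap nowhere else. The Hk2, Pgk1 and Ldha promoters shown were rich in G and C, with 67.3%, 66.7% and 67.3% of 300 bases (250 before and 50 after the start), while that of Hk3 had 49% and the median of all 32851 RefSeq promoters was 52.7%. Of the 16 promoters that RefSeq gives for the 10 genes, 13 held either core within 300 bases, against 43.8% of all promoters (19.6% with ACGTG and 32.4% with GCGTG). Neighbouring Aldoa windows overlap and share a core, so the 16 promoters are not independent. Both core sequences hold the letters CG, and no share was taken among promoters of like G and C content. A match describes the letters and is not a measured binding site.

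The libraries held RNA of more than microglia, and its amount changed with age. All 5 microglial markers (Tmem119, P2ry12, Sall1, Cx3cr1 and Siglech) were detected, none at 0, and their summed level ranged from 3538 to 6692 CPM at P6, from 7686 to 15762 CPM at P15 and from 11021 to 15451 CPM at 8 weeks, with 5 of 5 higher at 8 weeks than at P6. The 9 markers of neural progenitors and immature neurons summed to between 661 and 2037 CPM at P6, 124 and 845 CPM at P15 and 89.0 and 206 CPM at 8 weeks, with 9 of 9 lower at 8 weeks. The median sums of neuron markers were also lower at each later age, with 693, 315 and 110 CPM, as did those of monocyte and macrophage markers, with 976, 860 and 483 CPM. Markers of other cell types had higher median sums at P15 than at P6. At P6, P15 and 8 weeks these were 248, 1225 and 441 CPM for the oligodendrocyte lineage and 518, 2313 and 1846 CPM for astrocytes. They were 1828, 4719 and 1779 CPM for erythroid cells and 59.7, 127 and 129 CPM for endothelium. For neutrophils they were 24.4, 38.4 and 71.2 CPM, and for lymphocytes 5.21, 12.57 and 16.02 CPM. Of 5 lymphocyte markers, 4 were called higher at P15 and 5 at 8 weeks than at P6. Of 5 neutrophil markers these were 0 and 2. The 5 markers of dividing cells summed to between 460 and 772 CPM at P6 and between 11.02 and 19.97 CPM at 8 weeks, with 5 of 5 lower. The 9 genes known to respond to tissue dissociation summed to between 5679 and 8147 CPM at P6 and between 9508 and 19825 CPM at 8 weeks, with 7 of 9 higher and 1 lower. P15 male 1 stood apart from the other 11 P15 mice, with the lowest sums of microglial markers (7686 CPM) and of monocyte and macrophage markers (289 CPM, against a P15 median of 860 CPM). It had the highest sums of oligodendrocyte markers (2831 CPM, median 1225), neuron markers (693 CPM, median 315), progenitor markers (845 CPM, median 326) and neutrophil markers (104 CPM, median 38.4). In such bulk samples fewer cells of a type and less RNA per cell cannot be told apart, and of these markers those of neurons and neural progenitors alone were entered in a fit.

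Compared per length of gene, the members spanned a wide range of levels, and their order changed with age. In RPKM, which is CPM per kilobase of exon, P6 microglia held most Gapdh (270 ± 19.1 RPKM, SD, n = 10), then Pkm (203 ± 18.9), Aldoa (178 ± 18.6), Ldha (114 ± 11.9) and Pgk1 (79.8 ± 7.12). Pfkfb3 followed at 45.8 ± 14.4 RPKM, Hk2 at 33.1 ± 6.72, Hk3 at 31.8 ± 6.76, Pfkl at 13.7 ± 1.45 and Hk1 at 6.85 ± 1.29. At P6 the neighbours Pkm and Aldoa, and Pfkfb3, Hk2 and Hk3 among themselves, lay within the sum of their spreads of each other. At 8 weeks (n = 12) Aldoa (172 ± 31.5 RPKM) and Gapdh (169 ± 31.3) were level within their spread, and Hk2 (71.5 ± 9.24) had moved above Ldha (49.0 ± 8.26) and Pgk1 (31.2 ± 4.21). By longest transcript Hk2 (77.4 ± 10.0002 RPKM) lay above Pgk1 (38.4 ± 5.17) but not above Ldha (89.3 ± 15.06) at 8 weeks. Pfkl (16.96 ± 2.19) and Hk1 (9.34 ± 1.57) were the lowest 2 members at each age. The order among the highest 3 also depended on the length used: averaged over ages, Gapdh led Aldoa and Pkm by exon union (207, 174 and 139 RPKM), whereas by longest transcript Aldoa (327 RPKM) and Pkm (285) lay above Gapdh (260).

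The first question was how the glycolytic genes changed over the second postnatal week. From P6 to P15 the 3 hexokinases rose, and Gapdh, Pgk1, Pkm and Ldha fell. Hk1, Hk2, Hk3 and Pfkl were higher at P15, and Pfkfb3, Gapdh, Pgk1, Pkm and Ldha were lower, at a false discovery rate (FDR) below 0.05 (edgeR quasi-likelihood test, two-sided, Benjamini-Hochberg adjustment over 17612 genes). These were 4 and 5 of 10 members, beside 30.4% of all genes higher and 31.4% lower, so a call in itself was common. The changes ranged from a log2 fold change (log2FC) of −0.95 for Pgk1 to 0.96 for Hk2, and none passed a test against a 2-fold change (glmTreat, 0 of 10 members). The plot of levels by mouse shows the values behind each call.

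**Figure D1:**
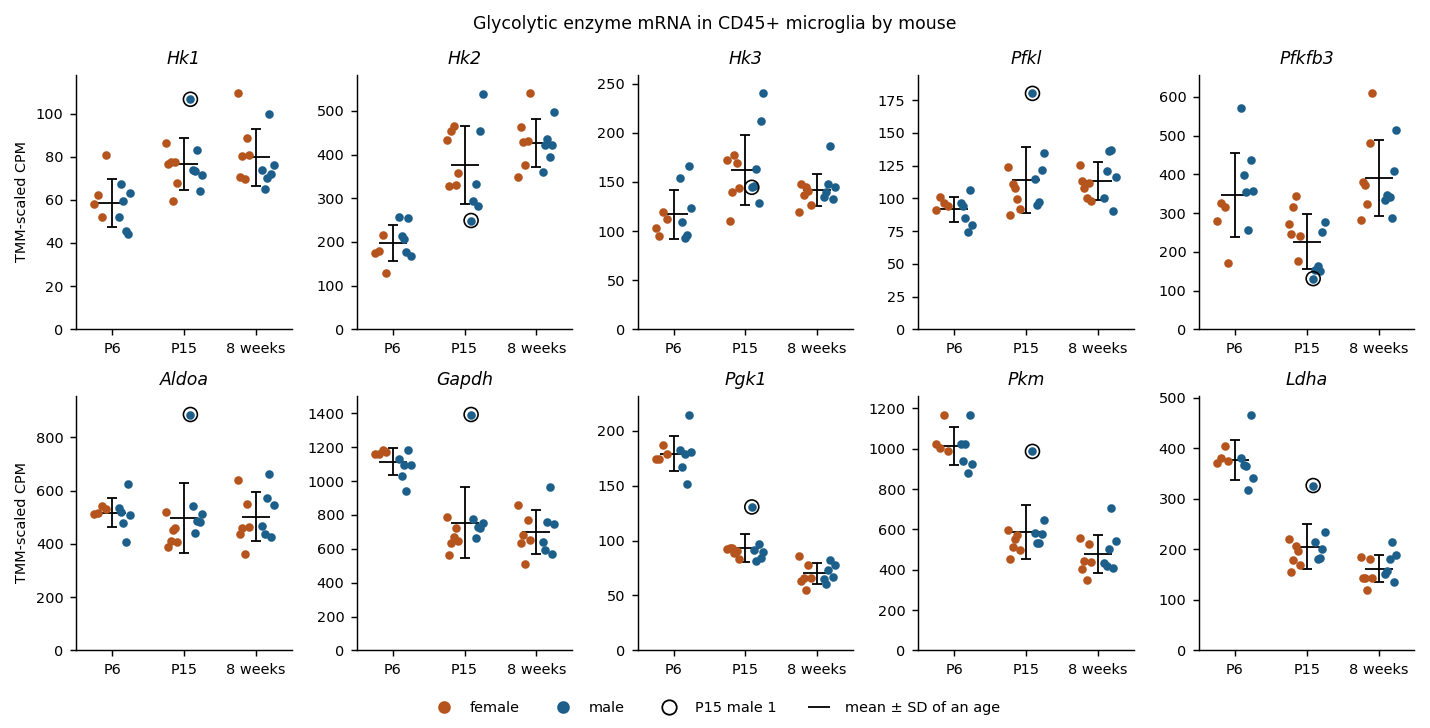
TMM-scaled CPM of each of the 10 genes (vertical axes, from 0) in each of 34 mice at P6, P15 and 8 weeks, females in orange and males in blue, with the mean ± SD of each age as a black line and bar. Hk2 rose and Pgk1, Pkm and Ldha fell with age, and the ringed P15 male 1 was the highest P15 mouse in 7 of the 10 genes.

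Hk2 (ENSMUSG00000000628, minus strand of GRCm38 chromosome 6, 82725025 to 82774454) had the largest rise. Its levels (lowest, median and highest) were 128, 192 and 258 CPM at P6, 249, 345 and 538 CPM at P15, and 348, 426 and 540 CPM at 8 weeks. All 12 mice at 8 weeks lay above all 10 mice at P6, and at P15 the only overlap with P6 was P15 male 1, the lowest of its age. The means were 198 ± 40.1 (SD, n = 10), 376 ± 89.4 (n = 12) and 427 ± 55.1 CPM (n = 12). The log2FC of Hk2 was 0.96 from P6 to P15 (SE 0.12, FDR = 4.37e-08) and 1.15 from P6 to 8 weeks (SE 0.12, FDR = 7.21e-10). The latter was not past 2-fold (glmTreat FDR = 0.137) and was lost with neural markers in the fit (0.35, FDR = 0.198). Every P6 library held more of the progenitor markers than every 8-week library, so over this span that fit cannot tell age from these markers. From P15 to 8 weeks the Hk2 log2FC of 0.18 (95% interval −0.05 to 0.41, FDR = 0.179) did not pass the test.

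Hk3 (ENSMUSG00000025877, minus strand of chromosome 13, 55005985 to 55021385), the myeloid hexokinase, was higher at P15 and at 8 weeks than at P6, and those later ages did not differ by the test (95% interval −0.40 to 0.02), although Hk3 was lower at 8 weeks than at P15 with scaling by total count (−0.20, FDR = 0.0298) and with neural markers in the fit (−0.80, FDR = 2.41e-08). Its lowest, median and highest levels were 92.9, 111 and 166 CPM at P6, 111, 155 and 240 CPM at P15, and 120, 141 and 186 CPM at 8 weeks. The ages overlapped throughout, and the highest 2 mice of all, at 240 and 212 CPM, were P15 males. Hk3 rose by 0.49 from P6 to P15 (SE 0.11, FDR = 2.87e-04), and at 8 weeks it was still higher than at P6 by 0.30 (SE 0.11, FDR = 0.0152). The P15 call was lost with neural markers in the fit (0.03, FDR = 0.756). The 8-week call was lost without P6 female 2 (0.23, FDR = 0.0715) and with scaling by total count (0.16, FDR = 0.0611). It turned to −0.77 (FDR = 1.90e-05) with neural markers in the fit, which cannot tell age from these markers between P6 and 8 weeks. Hk3 is also expressed by other myeloid cells, and the 9 monocyte and macrophage markers summed to between 724 and 1577 CPM at P6, 289 and 1031 CPM at P15 and 366 and 719 CPM at 8 weeks, with 4 of 9 higher and 3 lower at P15 than at P6, and 2 higher and 4 lower at 8 weeks than at P6. The 5 neutrophil markers tested summed to at most 81.4, 104 and 188 CPM, with 0 of 5 called between P6 and P15 by edgeR (2 at an unadjusted p below 0.05) and 2 of 5 higher at 8 weeks than at P6. The part of these cells in the level of Hk3 was not tested.

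Hk1 (ENSMUSG00000037012, minus strand of chromosome 10, 62268855 to 62379908), the hexokinase of most tissues and of neurons, was the lowest of the 3 per length. In CPM the lowest, median and highest mouse stood at 44.0, 58.8 and 80.8 at P6, 59.4, 75.3 and 107 at P15, and 64.8, 75.0 and 109 at 8 weeks. Every P15 and 8-week mouse lay above the P6 median, although the ages overlapped, and the P15 maximum was P15 male 1. Hk1 rose by 0.37 from P6 to P15 (SE 0.10, FDR = 0.0023) and by 0.43 from P6 to 8 weeks (SE 0.10, FDR = 3.87e-04). With scaling by total count the P15 call was lost (0.25, FDR = 0.0560). With P6 female 6 included, in which Hk1 was 133 CPM and Hk2 only 55.5 CPM, the P15 call was lost (0.22, FDR = 0.123) and the change to 8 weeks was 0.28 (FDR = 0.0459).

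Scaled by length, Hk2 and Hk3 were near equal in P6 microglia and Hk2 was the larger by 8 weeks. Hk2 made up 45.9% ± 4.79 of the length-scaled counts of Hk1, Hk2, Hk3 and Hkdc1 at P6 (SD, n = 10), 53.9% ± 4.67 at P15 and 59.7% ± 3.97 at 8 weeks (n = 12 each). Hk3 went from 44.1% ± 3.92 to 37.9% ± 3.69 and 32.4% ± 3.32. The highest Hk2 share at P6 (51.7%) lay just above the lowest at 8 weeks (51.4%), and the lowest Hk3 share at P6 (37.8%) lay below the highest at 8 weeks (39.5%). Hk1 stayed the smallest of the 3, at 9.86% ± 2.78, 8.06% ± 2.38 and 7.88% ± 1.64, or 16.3%, 13.6% and 13.4% by longest transcript. P6 female 6 was unlike the other P6 mice, with Hk1 at 44.1% and Hk2 at 26.3%. The paralogue Hkdc1 was sparse, with means of 0.210 ± 0.138, 0.520 ± 0.368 and 0.205 ± 0.194 CPM at the 3 ages in order. The smallest detectable level, taken as 3 counts, was 0.0770 to 0.129 CPM, which covers counting error only.

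**Figure D2:**
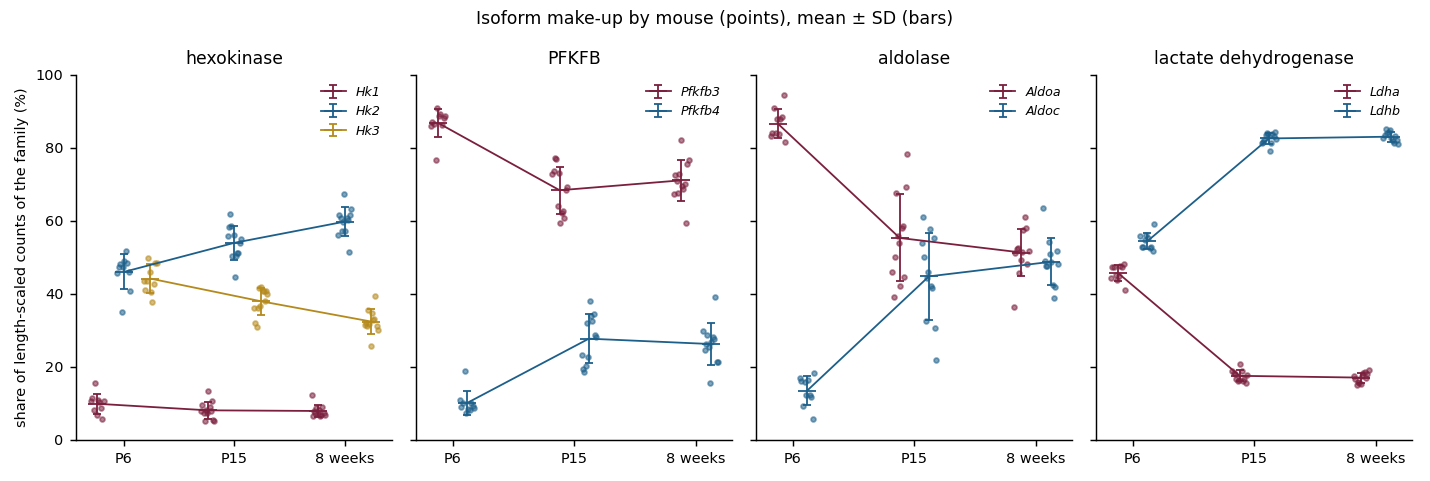
Share (%) of each isoform in the length-scaled counts of its family at P6, P15 and 8 weeks, with 1 point per mouse (34 mice) and mean ± SD as bars joined by lines. Hk2 rose to 59.7% of hexokinase, Aldoc drew level with Aldoa, and Ldha fell from 45.7% to 17.02% of lactate dehydrogenase.

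Pfkl (ENSMUSG00000020277, minus strand of chromosome 10, 77986947 to 78010083) changed little. Levels of Pfkl (lowest, median and highest) were 74.0, 94.0 and 106 CPM at P6, 87.5, 109 and 180 CPM at P15, and 90.7, 113 and 137 CPM at 8 weeks. The ages overlapped, and the value of 180 CPM was again P15 male 1. Pfkl rose by 0.30 from P6 to P15 (SE 0.094, FDR = 0.0070) and by 0.29 from P6 to 8 weeks (SE 0.094, FDR = 0.0059). Both calls were lost when libraries were scaled by total count alone (0.17, FDR = 0.0808 and 0.15, FDR = 0.102), a scaling that moved the median of all genes by −0.17 and −0.11, against −0.05 and 0.02 under TMM. Neither passed with neural markers in the fit (0.26, FDR = 0.0684 and 0.20, FDR = 0.446). Between P6 and 8 weeks this fit cannot tell age from these markers. The other subunits, Pfkm at 0.75 (SE 0.22, FDR = 0.0034) and Pfkp at 1.23 (SE 0.24, FDR = 2.73e-05), had larger log2FC from P6 to 8 weeks. Their differences from Pfkl, and the part of other cell types in them, were not tested. Pfkl held 43.4% ± 7.55 of length-scaled phosphofructokinase-1 counts at P6 and 35.3% ± 6.88 at 8 weeks, ranges that overlapped (38.2% to 59.3% and 22.0% to 45.5%).

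Pfkfb3 (ENSMUSG00000026773, minus strand of chromosome 2, 11471433 to 11554077) was lower at P15 than at the other ages. Between P6 and P15 the mean of the females went from 273 to 265 CPM and that of the males from 395 to 187 CPM, and a difference between the sexes in the change with age did not pass the test (FDR = 0.406). At P6 its lowest, median and highest levels were 171, 340 and 572 CPM, at P15 131, 243 and 343 CPM, and at 8 weeks 282, 359 and 609 CPM. Relative to the mean of an age, its SD was the largest of the members at each age. Of the 6 P15 males, 4 lay between 131 and 163 CPM, below every P6 and 8-week mouse. Pfkfb3 fell by 0.56 on the log2 scale from P6 to P15 (SE 0.16, FDR = 0.0028) and rose by 0.80 from P15 to 8 weeks (SE 0.15, FDR = 6.32e-05). The later rise did not pass with neural markers in the fit (0.34, FDR = 0.210). Its level at 8 weeks did not differ from P6 by the test (log2FC 0.25, 95% interval −0.08 to 0.57, FDR = 0.162). Its paralogue Pfkfb4, of the same dual-function family, rose at both steps, by 1.20 (SE 0.093) and 0.69 (SE 0.085), so that Pfkfb3 went from 86.8% ± 3.89 to 71.0% ± 5.62 of the length-scaled PFKFB counts and Pfkfb4 from 10.1% ± 3.27 to 26.2% ± 5.72. Pfkfb2 rose by 0.60 (SE 0.14, FDR = 2.68e-04) and the sparse Pfkfb1 fell by 0.94 on the log2 scale (SE 0.28, FDR = 0.0032) from P6 to 8 weeks.

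Aldoa (ENSMUSG00000030695, minus strand of chromosome 7, 126795234 to 126800751) was the member that did not pass the test between any 2 ages. Its lowest, median and highest levels were 406, 519 and 623 CPM at P6, 388, 471 and 886 CPM at P15, and 361, 465 and 661 CPM at 8 weeks. The ages overlapped almost fully, and the single level above 661 CPM was that of P15 male 1. From P6 to 8 weeks the Aldoa log2FC was −0.05 (95% interval −0.27 to 0.17, FDR = 0.686), and age accounted for 1.89% of its variance in log2 CPM over the 34 mice. A second row with the symbol Aldoa (ENSMUSG00000114515, 126800790 to 126809108 on the same strand) was sparse, at 1.93 ± 0.765 CPM at P6 and 0.478 ± 0.265 CPM at 8 weeks, and was not added to it. The brain-type aldolase Aldoc, an astrocyte-rich enzyme, rose from 90.5 ± 29.6 to 559 ± 240 CPM (log2FC 2.59, SE 0.30, FDR = 3.86e-09). Aldoa therefore went from 86.5% ± 3.94 to 51.3% ± 6.39 of length-scaled aldolase counts, with a lowest share of 81.6% at P6 and a highest of 61.1% at 8 weeks. Of 5 astrocyte marker genes, 3 rose from P6 to 8 weeks and 1 fell, with summed levels of 295 to 733 CPM at P6 and 1024 to 3063 CPM at 8 weeks, and their part in the Aldoc change was not tested.

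Gapdh (ENSMUSG00000057666, minus strand of chromosome 6, 125161715 to 125166467), often used as a reference gene, fell. Levels of Gapdh (lowest, median and highest) were 941, 1147 and 1185 CPM at P6, 565, 722 and 1394 CPM at P15, and 508, 668 and 967 CPM at 8 weeks. P15 male 1 held the highest level of all 34 mice, and the other 11 P15 mice, at most 787 CPM, lay below every P6 mouse. Gapdh fell by 0.58 on the log2 scale from P6 to P15 (SE 0.11, FDR = 3.19e-05), or by 0.68 without P15 male 1, and by 0.68 from P6 to 8 weeks (SE 0.11, FDR = 1.56e-06). The 8-week call was lost with neural markers in the fit (−0.46, FDR = 0.115), which cannot tell age from these markers over this span. Of 6 genes widely used as references, 4 were also lower at 8 weeks (Ppia at −1.08, Hprt at −0.56, Ywhaz at −0.55 and Actb at −0.32), Tbp (0.45) was higher, and Sdha (0.00089, FDR = 0.989) did not pass the test. The ratio of Gapdh to Actb counts was −3.06 ± 0.187 in log2 at P6, −3.49 ± 0.352 at P15 and −3.41 ± 0.187 at 8 weeks. The ratio of Gapdh to Aldoa counts went from 1.11 ± 0.0920 to 0.60 ± 0.0454 and 0.48 ± 0.0543. The Gapdh to Aldoa ratio of P15 male 1 (0.65) lay within the P15 range of 0.52 to 0.66, unlike its levels of both genes.

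Pgk1 (ENSMUSG00000062070, plus strand of chromosome X, 106187100 to 106203699) had the largest and steadiest fall. Its lowest, median and highest levels were 151, 179 and 215 CPM at P6, 81.7, 90.8 and 131 CPM at P15, and 54.8, 66.5 and 86.2 CPM at 8 weeks. Every P6 mouse lay above every P15 and 8-week mouse, the one member of which this held at both ages with all 34 mice. The means fell from 179 ± 15.99 (SD, n = 10) to 92.8 ± 12.7 (n = 12) and 70.0 ± 9.44 CPM (n = 12). The log2FC of Pgk1 was −0.95 from P6 to P15 (SE 0.079, FDR = 5.56e-12), −0.41 from P15 to 8 weeks (SE 0.075, FDR = 5.18e-05) and −1.35 from P6 to 8 weeks (SE 0.079, FDR = 4.08e-16), the last past 2-fold (glmTreat FDR = 5.50e-05). Age accounted for 92.1% of its variance in log2 CPM, against a median of 45.1% over all genes tested.

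Pkm (ENSMUSG00000032294, plus strand of chromosome 9, 59656368 to 59679375), which encodes the muscle-type pyruvate kinases, fell at each step. Its lowest, median and highest levels were 879, 1013 and 1170 CPM at P6, 454, 563 and 987 CPM at P15, and 351, 440 and 704 CPM at 8 weeks. The 8-week and P6 mice did not overlap, and P15 overlapped P6 through P15 male 1 alone. Pkm fell by 0.80 on the log2 scale from P6 to P15 (SE 0.10, FDR = 7.81e-08), by 0.29 from P15 to 8 weeks (FDR = 0.0167, but 0.178 with neural markers in the fit) and by 1.09 from P6 to 8 weeks, not past 2-fold (glmTreat FDR = 0.233). The liver-type gene Pklr did not pass the filter, at 0.0322 RPKM or less at each age, and the splice forms of Pkm cannot be told apart in counts per gene.

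Ldha (ENSMUSG00000063229, plus strand of chromosome 7, 46841475 to 46855627), the pyruvate-reducing lactate dehydrogenase, fell while Ldhb rose. The lowest, median and highest levels of Ldha were 318, 374 and 467 CPM at P6, 155, 198 and 327 CPM at P15, and 120, 154 and 216 CPM at 8 weeks. The 8-week mice lay below every P6 mouse, and the 1 P15 mouse inside the P6 range was again male 1. Ldha fell by 0.89 on the log2 scale from P6 to P15 (SE 0.098, FDR = 3.34e-09), by 0.34 from P15 to 8 weeks (SE 0.093, FDR = 0.0034) and by 1.23 from P6 to 8 weeks (SE 0.098, FDR = 1.19e-12), past 2-fold (glmTreat FDR = 0.0162). Ldhb, whose enzyme favours lactate oxidation, went from 213 ± 21.1 to 458 ± 68.3 and 375 ± 60.8 CPM, a log2FC of 1.10 from P6 to P15 (SE 0.093, FDR = 8.22e-12), then −0.28 to 8 weeks (SE 0.085, FDR = 0.0071). Of length-scaled lactate dehydrogenase counts, Ldha held 45.7% ± 2.23 at P6 (41.1% to 48.2%), 17.5% ± 1.54 at P15 (15.7% to 20.9%) and 17.02% ± 1.34 at 8 weeks (15.05% to 19.0%). The Ldha share at P6 overlapped neither later age, P15 male 1 included, and the ranges at P15 and 8 weeks lay together. The part of other cell types in the Ldhb change, and so in these shares, was not tested.

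From P15 to 8 weeks fewer members passed the test. Pfkfb3 rose and Pgk1, Pkm and Ldha fell, which were 1 and 3 of 10 members, beside 24% of all genes higher and 23.9% lower. The other 6 had intervals that reached 0, with log2FC of 0.06 for Hk1, −0.19 for Hk3 (95% interval −0.40 to 0.02), −0.0040 for Pfkl, 0.02 for Aldoa and −0.10 for Gapdh (95% interval −0.31 to 0.11) besides that of Hk2 above. Over the whole span from P6 to 8 weeks 4 members were higher (Hk1, Hk2, Hk3 and Pfkl) and 4 lower (Gapdh, Pgk1, Pkm and Ldha), beside 37.8% and 36.6% of all genes. Past 2-fold were 0 members higher and 2 lower (Pgk1 and Ldha), beside 11.5% and 12.4% of all genes. In 4 members (Hk2, Pgk1, Pkm and Ldha) the 8-week mice did not overlap the P6 mice, beside 29.6% of genes. Between P6 and P15 this held for 1 member, Pgk1, beside 13% of genes, and without P15 male 1 for 5 (Hk2, Gapdh, Pgk1, Pkm and Ldha), beside 17.9% of genes. Between P15 and 8 weeks it held for 0 members, beside 3.37% of genes.

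**Figure D3:**
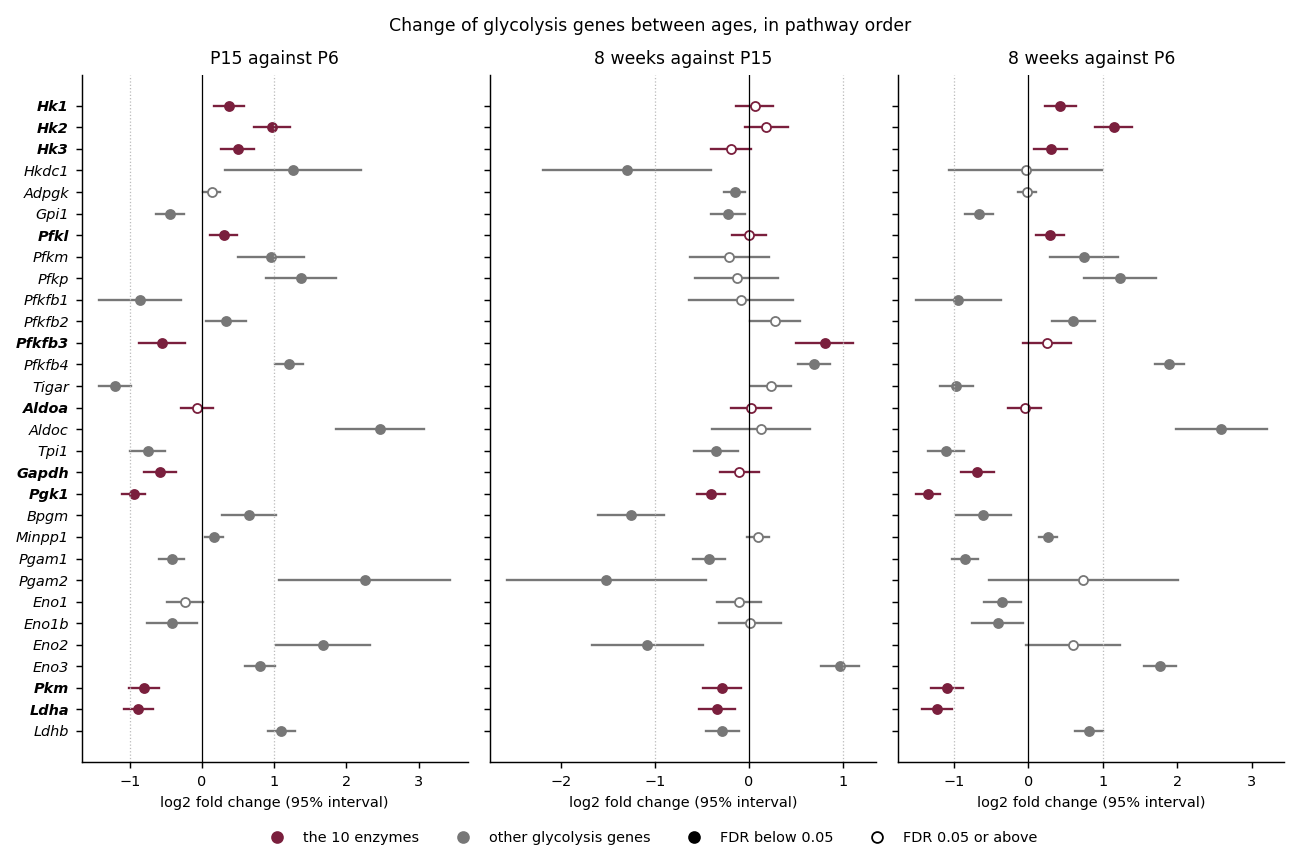
Log2 fold change with its 95% interval (horizontal axes) for the 10 enzymes (dark red) and the 20 other glycolysis genes tested (grey), in pathway order from the top, for P15 against P6, 8 weeks against P15 and 8 weeks against P6. Filled points passed an FDR of 0.05, and dotted lines mark a 2-fold change. Of the 10 enzymes, the 3 hexokinases lie right of 0 and Gapdh, Pgk1, Pkm and Ldha left of it in the comparisons with P6. Of the other genes, Aldoc lies far to the right in those comparisons and Ldhb right of 0.

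Ratios of counts within a library need no scaling between libraries. Hk2, which had the largest rise, was set against Ldha and Pgk1, which had the largest falls, so the direction of these ratios was fixed by the choice of genes. The log2 ratio of Hk2 to Ldha counts was −0.96 ± 0.26 at P6 (SD, n = 10), 0.86 ± 0.47 at P15 and 1.40 ± 0.31 at 8 weeks (n = 12 each). At P6 all mice held fewer Hk2 than Ldha counts (ratio at most −0.56), at 8 weeks all held more (at least 0.87), and at P15 only P15 male 1 (−0.39) was on the P6 side of 0. The log2 ratio of Hk2 to Pgk1 counts went from 0.12 ± 0.27 to 1.99 ± 0.46 and 2.61 ± 0.28, with a highest value of 0.50 at P6 and a lowest of 2.01 at 8 weeks.

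A list of 27 other glycolysis genes, the paralogues at the members' steps and the enzymes of the other steps, moved in both directions, as the members did. Of the 20 that passed the filter, 12 were higher and 6 lower at P15 than at P6 (30.4% and 31.4% of all genes), 2 higher and 9 lower at 8 weeks than at P15 (24% and 23.9%), and 8 higher and 8 lower at 8 weeks than at P6 (37.8% and 36.6%). Their median log2FC from P6 to 8 weeks was 0.12, beside 0.10 for the 10 members and 0.04 over all genes. Among the enzymes of the other steps Eno3, the muscle enolase, rose from 6.24 ± 0.959 to 21.6 ± 3.05 CPM (log2FC 1.77, SE 0.11, FDR = 1.29e-15). Tpi1, which interconverts the triose phosphates between the steps of Aldoa and Gapdh, fell by 1.11 on the log2 scale (SE 0.12, FDR = 9.83e-10). Tigar, which degrades fructose 2,6-bisphosphate and so opposes Pfkfb3, fell by 0.97 (SE 0.11, FDR = 2.08e-09).

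Lists of genes that feed the pathway or use its products held genes of both directions, beside the 37.8% higher and 36.6% lower of all genes, and the lists themselves were not tested. Of 11 genes of sugar and lactate transport, which include Bsg and Emb, accessory proteins of the monocarboxylate carriers, 5 were higher and 2 lower at 8 weeks than at P6. Slc2a5, a fructose transporter known as a microglial gene, went from 105 ± 25.3 to 600 ± 107 CPM (log2FC 2.54, SE 0.14, FDR = 1.35e-16), the monocarboxylate carrier Slc16a7 rose by 1.17 (SE 0.15) and the glucose transporter Slc2a6 fell by 0.93 on the log2 scale (SE 0.16). Of 14 tested genes that set the fate of pyruvate, 5 were higher and 8 lower. These included 2 kinases that inhibit pyruvate dehydrogenase, Pdk3 at −1.16 (SE 0.090) and Pdk2 at 0.96 (SE 0.15), and the activating phosphatase Pdp2 at 0.89 (SE 0.082). Of 8 pentose phosphate genes, 2 were higher and 4 lower, with Pgls at −1.08 (SE 0.10), Tkt at −0.70 (SE 0.099) and H6pd at 0.67 (SE 0.12). Of 16 genes of the hypoxia response, 7 were higher and 6 lower, and they did not move one way: Egln3, a HIF prolyl hydroxylase, was at −2.96 (SE 0.19), the collagen hydroxylase P4ha1 at 1.82 (SE 0.094) and Ndrg1 at 1.43 (SE 0.24).

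Females and males did not differ in any member by the test. With the sexes averaged over the 3 ages, 0 of 10 members passed (edgeR quasi-likelihood test, 0 at an unadjusted p below 0.05, 0 with DESeq2 and 0 with limma-voom), beside 0.0738% of all genes. The largest male minus female log2FC was 0.17 for Hk3 (95% interval −0.01 to 0.35, FDR = 0.743) and the lowest −0.08 for Hk1 (95% interval −0.24 to 0.09, FDR = 0.806). The change with age differed between the sexes in 0 of 10 members, beside 0% of all genes (1 member, Pfkfb3, at an unadjusted p of 0.0102, FDR = 0.406, and 0 with DESeq2 and limma-voom at an FDR below 0.05). At P6, Pfkfb3 was 273 ± 70.7 CPM in females (n = 4) and 395 ± 105 CPM in males, at P15 it was 265 ± 59.4 and 187 ± 60.4 CPM, and at 8 weeks 408 ± 119 and 372 ± 79.6 CPM (n = 6 in each other group). The sexes overlapped at each age.

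The changes of some members were different once the level of neural markers entered the fit. When the mean log2 CPM of the neuron and neural progenitor markers was added to the fit, the falls of Pgk1 (−1.16, FDR = 1.76e-06), Pkm (−1.06, FDR = 3.61e-04) and Ldha (−1.29, FDR = 1.29e-05) from P6 to 8 weeks passed the test as before. The rises of Hk2 and Pfkl and the fall of Gapdh no longer passed, Hk3 turned to a fall, and the rise of Hk1 grew to 0.99 (FDR = 2.53e-04). Since every P6 library held more of the progenitor markers than every 8-week library, age and the level of these markers cannot be told apart over this span. Between P6 and P15 the progenitor sums overlapped only in part (661 to 2037 CPM and 124 to 845 CPM). Age and these markers can thus be told apart only in part there. Hk2 rose by 0.61 (FDR = 1.61e-04) in this fit, whereas Hk3 and Pfkl no longer passed. From P15 to 8 weeks Pkm (−0.27) and Pfkfb3 lost their calls, while Hk1 (0.39, FDR = 0.0280) and Hk3 gained one.

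**Figure D4:**
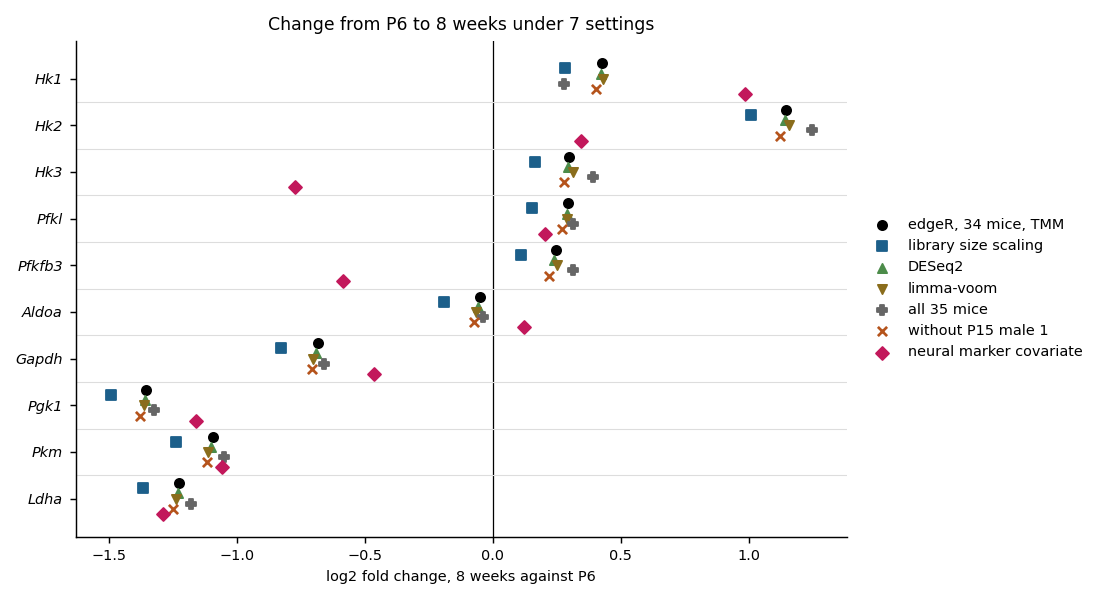
Log2 fold change from P6 to 8 weeks (horizontal axis) of the 10 genes under the reported test and 6 alternatives, 1 symbol each. Pgk1, Pkm and Ldha stayed below −1 under each, whereas with neural markers as a covariate Hk3 moved from 0.30 to −0.77 and Hk2 from 1.15 to 0.35. Over this span that covariate cannot be told apart from age.

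P15 male 1 moved with the results at P15. It was the highest of 12 P15 mice in 7 members (Hk1, Pfkl, Aldoa, Gapdh, Pgk1, Pkm and Ldha), at 1.44 to 1.93 times the median of the other 11, and the lowest in Hk2 (249 against 282 CPM for the next) and Pfkfb3. Without it, each of the 9 members called between P6 and P15 was still called, with Hk2 at 1.008, Pgk1 at −1.003, Pkm at −0.88, Ldha at −0.95 and Pfkl at 0.23 (FDR = 0.0188). Its high levels ran with its high oligodendrocyte, neuron, progenitor and neutrophil markers and its low microglial and macrophage markers, whose part in the levels of this mouse was not tested.

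For each hexokinase the 3 genes with the most similar pattern were sought, as the smallest root mean square difference of centred log2 CPM over the 34 mice. For Hk2, whose own root mean square deviation was 0.55, they were Bhlhe41 (0.16), Akr1b10 (0.20) and Ggta1 (0.20). For Hk3 (0.31) they included Pxn (0.07) and Dnm2 (0.08), and for Hk1 (0.30) Zer1 (0.15), Aldh4a1 (0.16) and Tom1l2 (0.17). The 3 lists shared no gene.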

How the data were processed

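CD45+ microglial mRNA of 35 mice was analysed from the raw counts per gene that the authors deposited, 1 column per mouse and neither filtered nor normalised. Per the study's methods, STAR with its default parameters placed the paired-end reads of directional libraries on GRCm38/mm10, and featureCounts counted fragments by strand. The release of the gene annotation is not given in the sources used here. Counting by gene cannot resolve splice forms, and reads shared with near-identical processed pseudogenes (as known for Gapdh, Aldoa, Pgk1 and Ldha) may be missing from, or added to, their counts.

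The 10 genes, the gene lists and the tests were chosen with earlier results of these data known. Symbols, coordinates and lengths came from GENCODE M21 on GRCm38, which named 55141 of the 55401 rows and matched all 10 genes. A gene was kept (17612 in all) when 5 or more mice reached 0.5 CPM. Groups came from the age and sex in the labels, and P6 female 6 was left out as in the study. The labels do not name batches, and p-values measure the spread between mice.

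Counts were fitted in R 4.3.3 with edgeR 4.0.16 (TMM, glmQLFit robust, glmQLFTest, 1 mean per age and sex group, Benjamini-Hochberg adjustment over all genes kept). A second call used glmTreat with a 2-fold threshold, a form of the test that the study's methods used with limma-voom. SE is the log2FC divided by the square root of its F value. RPKM used the union of a gene's exons, and shares within an isoform family used counts divided by that length. Log2 CPM for likeness and variance used a prior count of 2. Named besides the 10 genes were their paralogues past the filter and the 3 genes with the largest change from P6 to 8 weeks at an FDR below 0.05 in each further list. A few genes are not reported here and were left out of the lists. Alternatives were all 35 mice, library size or DESeq2 size factors as scaling, DESeq2 1.42.0, limma-voom (limma 3.58.1), no filter, at least 10 counts in every mouse, a replicate block, age without sex, the compared ages alone, a fit with neural markers as covariate, the P6 females left out one at a time, and other lengths for RPKM and shares. Leaving out P15 male 1 was added after its values were seen. The tests were tried on simulated counts in which far fewer genes changed than were called here. That trial cannot show how the scaling behaves under broad change. No 2 libraries of a group were copies (lowest chi-square per gene 12.8 over 85 pairs). Python 3.11.15 with pandas 2.3.3 and matplotlib 3.10.9 was used for descriptions and plots.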

Additional observations from a re-analysis of the deposited data

Results flagged for a closer look

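By Dixon's criterion chance flags about 1 in 20 independent tests, and tests of several genes in the same mice are not independent. In 7 of 60 tests (10 genes in 6 groups of age and sex), 1 mouse lay far from the rest of its group by this criterion. In 5 of the 7 it was P15 male 1, with 886 CPM of Aldoa (the other 5 P15 males at 440 to 542 CPM), 1394 CPM of Gapdh (662 to 778), 131 CPM of Pgk1 (81.7 to 97.0), 987 CPM of Pkm (532 to 648) and 327 CPM of Ldha (182 to 235). The 5 flags share 1 library and are not independent of each other. In the remaining 2 it was 8-week male 4, with 99.6 CPM of Hk1 (the other 5 at 64.8 to 76.3 CPM) and 186 CPM of Hk3 (133 to 148). The cause was not tested for either mouse.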

How the results depend on the processing

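Scaling by library size left 2 members higher at P15 and 2 at 8 weeks than at P6, in place of 4 each, beside 5 and 4 lower as before. Against a 2-fold threshold, a stricter test by construction, the members higher and lower were 0 and 0 from P6 to P15, 0 and 0 from P15 to 8 weeks, and 0 and 2 from P6 to 8 weeks, and the other glycolysis genes 4 and 0, 0 and 0, and 3 and 0. With neural markers as a covariate 2 members were higher at P15 and 1 at 8 weeks than at P6, and 5 other glycolysis genes were higher and 4 lower from P15 to 8 weeks. Turned in sign were, in this fit, Hk2 (−0.26) and Gapdh (0.030) from P15 to 8 weeks, and Hk3 (−0.77), Pfkfb3 (−0.59) and Aldoa (0.12) from P6 to 8 weeks. Values near 0 that did not pass the test also turned: Pfkl from P15 to 8 weeks with limma-voom (0.0080), the compared ages alone (0.00062) and the replicate block (0.0055), and male minus female Pfkfb3 with all 35 mice (0.0042), Hk2 (−0.024) and Pgk1 (−0.015) with library size scaling. With 1 mouse left out, Aldoa from P15 to 8 weeks ranged from −0.0023 to 0.086, Pfkl from −0.024 to 0.041, and male minus female Hk2 from −0.0076 to 0.071. The cause was not tested. Mice that share a number in the labels are different animals, and their deviations did not pair (mean correlation 0.03 over 80 pairs, 27 of them over 0.1), so the replicate block shares only a number. It changed no other call of a member and no count of members by over 1.5 times.

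Isoform shares and levels depend on the length used. By longest transcript the Hk1 share was 16.3% at P6, 13.6% at P15 and 13.4% at 8 weeks, that of Hk2 55.1% at 8 weeks, Pfkl 53.4% at P6 and 44.7% at 8 weeks, Aldoa 91.1% and 62.6%, and Ldha 56.0%, 24.3% at P15 and 23.7%. Without length scaling the shares were 16.1%, 12.9% and 12.4% for Hk1, 52.6%, 60.6% and 65.6% for Hk2, 31.2%, 26.4% and 22.0% for Hk3, 55.2% at P6 and 45.4% at 8 weeks for Pfkl, 76.0% at P15 and 78.5% at 8 weeks for Pfkfb3, and 63.9%, 30.9% and 30.2% for Ldha. With all 35 mice Hk1 held 12.97% at P6. By longest transcript the mean levels were 16.7 RPKM for Hk1, 28.5 for Pfkl, 66.8 for Pfkfb3, 327 for Aldoa, 285 for Pkm and 137 for Ldha. Depth limited only the sparse paralogues, since each member had at least 1389 counts in each of the 34 mice.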
